A study of Mus musculus with 24 samples.

Results

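The Snrpn imprinted cluster of mouse chromosome 7 was followed through 7 genes, Snrpn, Snhg14, Ube3a, Ndn, Magel2, Mkrn3 and Peg12, which were taken by name from a table of 35591 genes. All 7 passed the filter on low counts in every comparison. Poly(A) RNA had been sequenced from male embryonic stem cells of mice (mESCs), grown from blastocysts of a Castaneus mother that was Smchd1+/+ and a C57BL/6 father that was Smchd1 del/fl and carried an MMTV-Cre transgene, used in the study for deletion in germ cells. The 3 wild-type lines (wt, Smchd1 fl/+) thus kept both working copies of Smchd1, and the 3 heterozygous lines (het, Smchd1 del/+) had inherited a deleted paternal copy. Each line came from 1 blastocyst and was sampled on day 0 (medium with LIF), day 2, day 2.5 (12 h after the GSK3 inhibitor CHIR99021 was added at day 2 to activate Wnt signalling) and day 3 of differentiation towards neuromesodermal progenitors (NMPs), the progenitors of spinal cord and trunk mesoderm, which gives 24 libraries in 8 groups of 3. The line is the replicate, and the 4 days of a line are repeated measures of it.

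An imprinted gene is transcribed mainly from the copy inherited from 1 parent. In this cluster, the counterpart of the human region of the Prader-Willi and Angelman syndromes, Snrpn, Snhg14, Ndn, Magel2, Mkrn3 and Peg12 are known as paternally expressed, under an imprinting centre beside the Snrpn start that is methylated on the maternal copy. Ube3a is known as maternally expressed in neurons, where the long antisense transcript of Snhg14 runs through it, and as expressed from both copies in most other cells. SMCHD1, the protein of Smchd1, is a chromosomal repressor whose known targets include the X chromosome and several imprinted genes, some of this cluster among them. The counts do not separate the parental copies, so each value below is the sum over both, and which copy was transcribed was not measured.

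The 7 genes span 3.24 Mb of build GRCm38. Ube3a lies at chr7:59228750-59311536 on the plus strand (ENSMUSG00000025326), Snhg14 at chr7:59307924-59975759 on the minus strand (ENSMUSG00000100826) and Snrpn at chr7:59982495-60140219 on the minus strand (ENSMUSG00000102252). At the other end of the span lie Ndn at chr7:62346569-62350262 (plus strand, ENSMUSG00000033585), Magel2 at chr7:62377010-62381640 (plus strand, ENSMUSG00000056972), Mkrn3 at chr7:62417593-62420139 (minus strand, ENSMUSG00000070527) and Peg12 at chr7:62461871-62464510 (minus strand, ENSMUSG00000070526). In GENCODE vM21 these last 4 genes each form 1 exon block, whereas Snrpn has 12, Ube3a 16 and Snhg14 65. Exons of Snhg14 and Ube3a overlap on opposite strands over 1803 bases, which is 8.74% of the exon bases of Ube3a and 6.91% of those of Snhg14. Snrpn shares 589 exon bases with Gm38393, a transcript that reads through the same locus, and 216 with Snurf, whose coding sequence stands upstream of that of Snrpn. Of the 75-base stretches of each gene's transcripts, 18.9% were shared with another gene on the same strand for Snrpn, 0.803% for Snhg14 and 0% for the other 5 genes. On the opposite strand the share was 23.0% for Ube3a, 7.54% for Snhg14 and 3.70% for Snrpn. Whether each library was counted by strand is not stated, so reads over these stretches of Snrpn, Snhg14 and Ube3a cannot be assigned with certainty, and the values of Ndn, Magel2, Mkrn3 and Peg12 are free of this limit.

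The promoter sequences are shown because the cluster is known for control by CpG methylation at its start sites. RefSeq (GRCm38.p6) gave windows of 300 bases, 250 before and 50 after a start, for all 7 genes, at 9 distinct places. These starts do not all match the loci given above, over which reads were counted. The window of Snhg14 lies upstream of, and outside, the loci of both Snhg14 and Snrpn. The window of Ndn lies inside the exon block of Ndn. Which starts were used in these cells was not measured. The 250 bases before the start are printed 5′ to 3′ with each CG in capitals for Ube3a (chr7:59228500-59228749, plus strand), Snhg14 (chr7:60450178-60450427, minus strand, a start that RefSeq also gives to Snrpn), Ndn (chr7:62348027-62348276, plus strand) and Peg12 (chr7:62464511-62464760, minus strand), which cover the most and the fewest CG pairs and both ends of the cluster.
Ube3a: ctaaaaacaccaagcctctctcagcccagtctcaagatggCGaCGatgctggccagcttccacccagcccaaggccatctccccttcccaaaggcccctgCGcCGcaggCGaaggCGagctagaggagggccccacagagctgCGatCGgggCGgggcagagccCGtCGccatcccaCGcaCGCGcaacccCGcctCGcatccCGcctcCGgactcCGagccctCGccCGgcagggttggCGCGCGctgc
Snhg14: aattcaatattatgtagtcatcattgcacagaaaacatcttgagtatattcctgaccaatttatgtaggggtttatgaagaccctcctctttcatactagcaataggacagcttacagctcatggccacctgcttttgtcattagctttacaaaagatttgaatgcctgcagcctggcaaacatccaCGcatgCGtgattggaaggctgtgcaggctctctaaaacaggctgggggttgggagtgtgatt
Ndn: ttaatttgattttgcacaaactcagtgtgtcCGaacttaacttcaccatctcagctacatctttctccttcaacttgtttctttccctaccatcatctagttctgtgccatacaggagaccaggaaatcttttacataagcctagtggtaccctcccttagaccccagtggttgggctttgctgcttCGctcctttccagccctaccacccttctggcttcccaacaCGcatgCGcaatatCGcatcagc
Peg12: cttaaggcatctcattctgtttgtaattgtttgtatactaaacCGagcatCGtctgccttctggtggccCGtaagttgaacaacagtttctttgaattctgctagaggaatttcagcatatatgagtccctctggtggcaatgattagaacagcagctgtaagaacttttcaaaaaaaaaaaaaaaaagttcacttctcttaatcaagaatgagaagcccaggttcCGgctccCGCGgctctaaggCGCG
The Ube3a window of 300 bases held 29 CG pairs, and 12.9% of the 32817 promoter windows of the mouse held as many or more. Mkrn3 followed with 15, Peg12 with 12, Ndn with 11 and Magel2 with 10. The Snrpn start at the downstream end (window chr7:60005150-60005449) held 7 CG pairs, the median of all windows, and the starts farther upstream held 4, 3 and 2. The CG content of the windows was thus not ordered as the levels of the genes, given below.

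A stretch of 8 bases, CGCATGCG, which reads the same on both strands, stood in 5 of the 9 windows. It was noticed in these sequences after they were read and was not looked for in advance. Of all promoter windows, 1.86% held it. Its surroundings are shown with the 8 bases in capitals, at chr7:60005150-60005174, chr7:60048031-60048060, chr7:60140285-60140314 and chr7:60450222-60450251 on the minus strand for the first 4 and chr7:62348243-62348272 on the plus strand for Ndn.
Snrpn, downstream start: attgcctgggaCGCATGCGtaggga
Snrpn, middle start: gcaaacatgcaCGCATGCGtcgttgaaggt
Snrpn, upstream start: gcaaacatccaCGCATGCGtgatgggaggg
Snhg14 start: gcaaacatccaCGCATGCGtgattggaagg
Ndn start: gcttcccaacaCGCATGCGcaatatcgcat
The 3 windows of the middle and upstream Snrpn starts and of the Snhg14 start are alike in sequence. They share 54 to 101 of their 289 stretches of 12 bases with each other, so they are not separate occurrences. The windows of Ndn and of the downstream Snrpn start shared no such stretch with those 3. The letters CCATNTT, a core of YY1 sites, were in those of Ube3a, Magel2 and Mkrn3, against 16.1% of all windows. Both strands were read. A match is a description of letters and not a site.

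Libraries held between 7.10 and 20.8 M (mega) counts, with 17.9 M as the median, the smallest being wt line 2 at day 2.5. The targeted gene was lower in het lines, as Smchd1 averaged 168 ± 13.7 CPM (counts per M counts, with TMM scaling) in the wt lines and 103 ± 1.74 CPM in the het lines (mean ± SD over line means, n = 3), a log2 fold change of -0.76 on counts added up across the days of a line (edgeR quasi-likelihood test, adjusted p = 0.00556). Some summed markers moved with the labelled stages. Summed naive pluripotency markers (8 genes, among them Zfp42, Esrrb and Nanog) went from 1338 to 1543 CPM at day 0 to 125 to 192 CPM at day 2, and summed caudal epiblast markers (7 genes, among them T and Cdx2) went from 2.83 to 6.08 CPM at day 2 to 659 to 1309.9 CPM at day 2.5. Summed neuron markers (9 genes, 1 of them at most at 0 in all 3 libraries of a group) went from 336 to 389 CPM at day 0 to 85.8 to 128 CPM at day 3. The sum does not stand for each gene of the list. From day 0 to day 2 in wt, 3 of 6 tested were called higher and 2 lower (median log2 fold change 0.57), where 44.3% of all genes were called. In het 2 of 7 were called higher and 2 lower (median 0.55), where 56.1% of all genes were called. The median of 987 genes of chromosome 7 in each line was within -0.02 to 0.04 of the mean of the 6 lines on the log2 scale.

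Levels were compared between genes per kilobase (kb) of exon, as the mean over the 4 days of each line. Snrpn stood highest at 109 ± 6.57 CPM per kb (mean ± SD, n = 6 lines). Ube3a followed at 9.19 ± 1.154. Ndn at 4.20 ± 0.50, Snhg14 at 3.61 ± 0.83 and Mkrn3 at 3.57 ± 0.81 did not differ from each other beyond this spread, and the lines of Peg12, at 2.02 ± 0.57, overlapped those of Snhg14 and Mkrn3. Magel2 was lowest at 0.244 ± 0.054, on 0 to 56 counts per library. Exon lengths are unions over all annotated isoforms, and for Ube3a and Snhg14 they are long (20626 and 26093 bases), which lowers their level per kb.

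**Figure D1:**
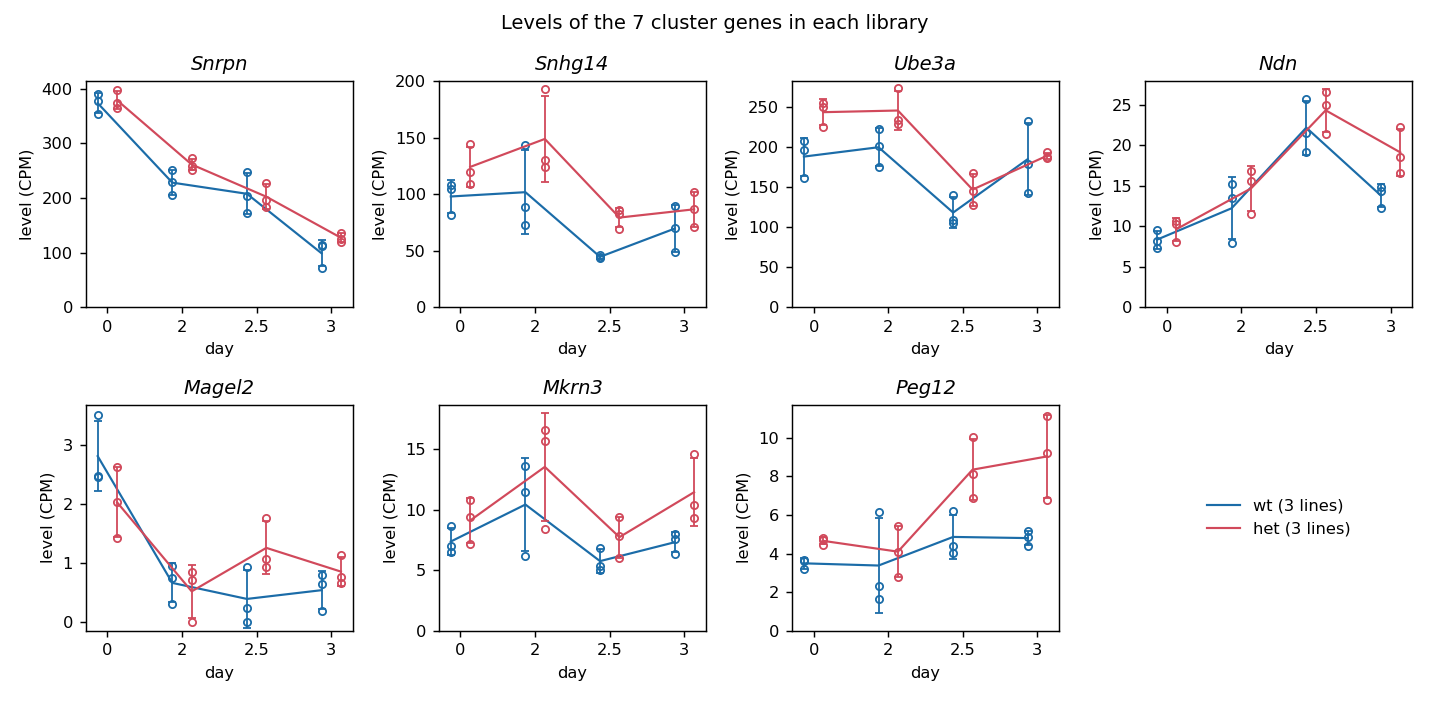
Level of each of the 7 cluster genes in CPM (vertical axis, linear, from 0 except for a small margin for Magel2) against day (horizontal axis, not to scale), with open circles for libraries, lines through the means of 3 lines and bars for the SD. Snrpn falls from day 0 to day 3, Ndn peaks at day 2.5, Ube3a and Snhg14 dip at day 2.5, and the het means of Peg12 are above the wt means on all 4 days.

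Of the protein-coding genes at the centre of the cluster, Snrpn encodes SmN, a protein of the small nuclear ribonucleoproteins that splice messenger RNA. At day 0 its level was 390, 379 and 353 CPM in wt lines 1, 2 and 3, against 365, 398 and 374 CPM in the het lines. By day 2 the level was 229, 251 and 205 CPM in wt lines 1, 2 and 3, against 273, 259 and 252 CPM in the het lines. All day 2 libraries were below all day 0 libraries in both genotypes, and the het lines were all above the wt lines at day 2.
At day 2.5 the level was 247, 203 and 173 CPM in wt lines 1, 2 and 3, against 183, 196 and 228 CPM in the het lines. At day 3 it was 112, 70.9 and 113 CPM in wt lines 1, 2 and 3, against 120.2, 136 and 125 CPM in the het lines. The groups overlapped at days 0 and 2.5 and did not at day 3, where wt line 2 was the lowest library of all.

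Snrpn thus went down in steps. Between days 0 and 2 it changed by -0.71 (adjusted p = 7.77e-05, SE 0.10) in wt and -0.53 (adjusted p = 1.92e-06, SE 0.06) in het on the log2 scale, with all 6 lines going down. From day 2 to day 2.5 it was -0.14 (adjusted p = 0.485, SE 0.14) in wt, where line 1 went up, and -0.39 (adjusted p = 0.00201, SE 0.09) in het, where all 3 lines went down. From day 2.5 to day 3 it was -1.07 (adjusted p = 0.00369, SE 0.18) in wt and -0.69 (adjusted p = 3.20e-04, SE 0.09) in het. The loci that share its exons moved alike over the course. Snurf went down by 0.65 and 0.67 on the log2 scale from day 0 to day 2 in wt and het, and by 0.91 and 0.82 from day 2.5 to day 3, each called. Gm38393 went down at the same steps, by 0.45 and 0.40 and by 0.60 and 0.64, each called. The 3 loci share bases and are not separate measurements. In bulk RNA, fewer cells of a type and less RNA per cell cannot be told apart.

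Between genotypes, Snrpn differed little. The log2 fold change of het against wt was 0.00 (95% interval -0.15 to 0.15, adjusted p = 0.988) at day 0, 0.19 (95% interval -0.01 to 0.38, adjusted p = 0.502) at day 2, -0.03 (95% interval -0.32 to 0.25, adjusted p = 0.984) at day 2.5 and 0.36 (95% interval 0.03 to 0.69, adjusted p = 0.517) at day 3. On the added-up counts of a line's 4 days it was 0.06 (95% interval -0.07 to 0.20, adjusted p = 0.809), so the interval holds differences of up to 0.20 on the log2 scale. Snurf and Gm38393 gave -0.02 and 0.06 at day 3, unlike the 0.36 of Snrpn, and were not called on any day.

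Snhg14 is the long noncoding RNA gene downstream of Snrpn that hosts families of small nucleolar RNAs in its introns. Its level at day 0 was 109, 104 and 81.3 CPM in wt lines 1, 2 and 3, against 119, 109 and 144 CPM in the het lines. At day 2 it was 88.9, 144 and 73.1 CPM in wt lines 1, 2 and 3, against 130.3, 124 and 193 CPM in the het lines. The genotypes did not overlap at day 0 and overlapped at day 2 through wt line 2.
At day 2.5 the level was 44.05, 43.2 and 46.4 CPM in wt lines 1, 2 and 3, against 82.8, 85.9 and 69.4 CPM in the het lines. By day 3 it was 48.9, 90.02 and 69.8 CPM in wt lines 1, 2 and 3, against 70.9, 87.1 and 102 CPM in the het lines. The wt libraries of day 2.5 lay close together, on 801, 313 and 788 counts, and below all het libraries, which rested on 1686, 1646 and 1374 counts. At day 3 the groups overlapped again.

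The difference between genotypes in Snhg14 was 0.32 (adjusted p = 0.403, SE 0.13) at day 0, 0.54 (adjusted p = 0.326, SE 0.20) at day 2, 0.84 (adjusted p = 0.371, SE 0.13) at day 2.5 and 0.31 (adjusted p = 0.681, SE 0.20) at day 3, as log2 fold changes of het against wt. None was called by edgeR with its filter on low counts. With no such filter edgeR called those of day 0 (adjusted p = 0.0354), day 2 (1.28e-04) and day 2.5 (1.01e-05). The day 2.5 difference had a 95% interval of 0.57 to 1.11 and an unadjusted p of 2.38e-05, and DESeq2 called it (log2 fold change 0.83, adjusted p = 1.44e-04). Without wt line 2 the day 2 difference was 0.87 and was called by edgeR (adjusted p = 0.0212). Leaving out 1 line in turn gave 0.31 to 0.87 at day 2, 0.10 to 0.54 at day 3 and 0.77 to 0.92 at day 2.5. Over steps, Snhg14 fell from day 2 to day 2.5 in both genotypes, by 1.19 (adjusted p = 9.77e-04, SE 0.20) in wt and 0.93 (adjusted p = 1.67e-04, SE 0.15) in het on the log2 scale. From day 2.5 to day 3 it rose in wt, 0.65 (adjusted p = 0.0402, SE 0.19), and was 0.10 (adjusted p = 0.602, SE 0.13) in het.

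Ube3a encodes an E3 ubiquitin ligase. Its level at day 0 was 161, 207 and 196 CPM in wt lines 1, 2 and 3, against 251, 225 and 256 CPM in the het lines. Day 2 values were 202, 223 and 175 CPM in wt lines 1, 2 and 3, against 229, 234 and 274 CPM in the het lines. On both days the lowest het library was above the highest wt library.
At day 2.5 the level was 108, 106 and 141 CPM in wt lines 1, 2 and 3, against 128, 145 and 168 CPM in the het lines. At day 3 it was 143, 233 and 179 CPM in wt lines 1, 2 and 3, against 186, 188 and 194 CPM in the het lines. The groups overlapped on these days, and at day 3 the wt lines spread over 143 to 233 CPM while the het lines lay within 186 to 194 CPM.

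The log2 fold change of Ube3a in het against wt was 0.36 (adjusted p = 0.334, SE 0.09) at day 0, 0.29 (adjusted p = 0.297, SE 0.10) at day 2, 0.31 (adjusted p = 0.907, SE 0.14) at day 2.5 and 0.02 (adjusted p = 0.976, SE 0.15) at day 3. None was called by edgeR with its filter on low counts, and that of day 0 was called by edgeR with no filter (0.36, adjusted p = 0.00271) and by DESeq2 (0.36, adjusted p = 0.0313). Ube3a stayed level from day 0 to day 2 within its error, 0.09 (95% interval -0.16 to 0.35, adjusted p = 0.555) in wt and 0.02 (95% interval -0.14 to 0.18, adjusted p = 0.834) in het. It then fell by 0.76 (adjusted p = 0.00148, SE 0.14) in wt and 0.76 (adjusted p = 3.37e-05, SE 0.10) in het from day 2 to day 2.5 and rose by 0.65 (adjusted p = 0.0281, SE 0.18) and 0.34 (adjusted p = 0.0159, SE 0.09) from day 2.5 to day 3.

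The levels of Snhg14 and Ube3a went up and down together, with Pearson's r of 0.85 on log2 CPM over the 24 libraries. The points share lines and days, and the pair shares exon bases on opposite strands, so this is a description. Gm44560, a short locus antisense to Ube3a of which 65.0% of exon bases lie in Ube3a exons, fell with them from day 2 to day 2.5, by 0.62 (adjusted p = 0.0453, SE 0.22) in wt and 0.77 (adjusted p = 4.14e-04, SE 0.14) in het. 9330162G02Rik, which overlaps the start of Ube3a on the other strand, gave -0.67 (adjusted p = 0.204, SE 0.38) and 0.38 (adjusted p = 0.522, SE 0.45) at that step. Snrpn, which lies on the same strand as Snhg14 and shares a RefSeq start with it, had r of 0.42 with Snhg14 and 0.23 with Ube3a.

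**Figure D2:**
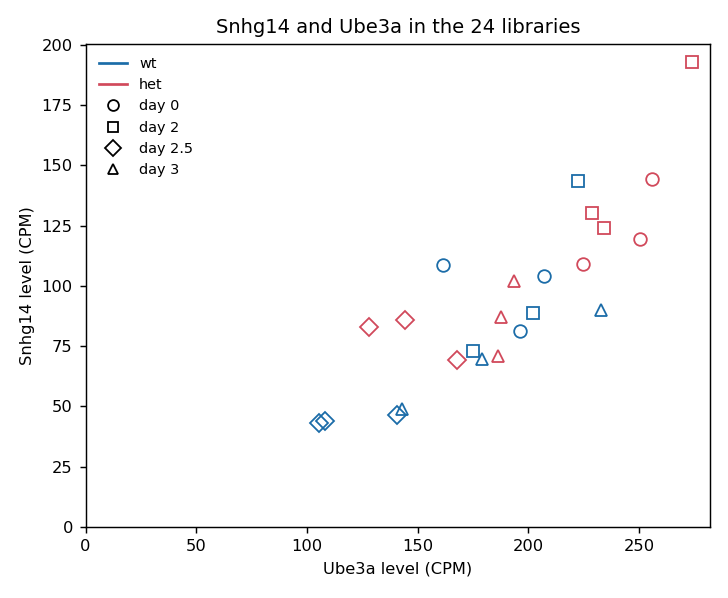
Level of Snhg14 (vertical axis, CPM) against that of Ube3a (horizontal axis, CPM), both linear from 0, with 1 point per library, colour for genotype and shape for day. The 3 wt libraries of day 2.5 sit lowest for Snhg14, at 43.2 to 46.4 CPM, and het line 3 at day 2 sits highest on both axes.

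Ndn encodes necdin, a protein of the MAGE family known as a growth suppressor in neurons. Its level at day 0 was 7.32, 8.14 and 9.53 CPM in wt lines 1, 2 and 3, against 7.98, 10.2 and 10.7 CPM in the het lines. By day 2 the level was 15.2, 13.5 and 7.904 CPM in wt lines 1, 2 and 3, against 16.9, 15.6 and 11.5 CPM in the het lines. The groups overlapped on both days, and line 3 was the lowest of its genotype at day 2.
At day 2.5 the level was 25.7, 21.5 and 19.2 CPM in wt lines 1, 2 and 3, against 25.01, 21.4 and 26.5 CPM in the het lines. By day 3 it was 12.2, 14.8 and 14.3 CPM in wt lines 1, 2 and 3, against 22.3, 16.5 and 18.5 CPM in the het lines. All 6 lines were at their highest at day 2.5, and at day 3 the het lines were all above the wt lines.

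Ndn went up to day 2.5 and down after it. The log2 fold change from day 0 to day 2 was 0.56 (adjusted p = 0.111, SE 0.27) in wt and 0.62 (adjusted p = 0.0147, SE 0.20) in het, and only the second was called, although 1 fit of all 24 libraries called the first as well (adjusted p = 0.0321). From day 2 to day 2.5 it rose by 0.86 (adjusted p = 0.0192, SE 0.25) in wt and 0.71 (adjusted p = 0.0034, SE 0.17) in het, in 6 of 6 lines. From day 2.5 to day 3 it fell by 0.68 (adjusted p = 0.0238, SE 0.18) in wt and was -0.37 (adjusted p = 0.0638, SE 0.14) in het, lower in 6 of 6 lines. With the line as a block the het change was called as well (log2 fold change -0.38, adjusted p = 0.0368). Het against wt gave 0.19 (adjusted p = 0.748, SE 0.20), 0.26 (adjusted p = 0.788, SE 0.25), 0.14 (adjusted p = 0.932, SE 0.15) and 0.46 (adjusted p = 0.444, SE 0.16) on the 4 days in order, and 0.33 (95% interval 0.11 to 0.56, adjusted p = 0.428) on the summed counts.

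Magel2, a MAGE gene of protein trafficking in endosomes, was the weakest member. At day 0 it had 56, 42 and 34 counts in the wt lines and 47, 32 and 22 in the het lines. At day 2 it had 6, 14 and 19 counts in wt and 14, 12 and 0 in het. Every day 2 library was below every day 0 library in CPM.
At day 2.5 Magel2 had 17, 0 and 4 counts in wt and 36, 18 and 21 in het, and at day 3 it had 14, 3 and 13 and 15, 14 and 23. The library with 0 counts at day 2.5 was the smallest one, in which 3 counts, the level that a count of 0 allows, stood for 0.414 CPM. Levels of het lines were all above those of wt lines at day 2.5 (0.939 to 1.77 against 0 to 0.935 CPM), by a margin worth less than 1 count.

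The fall of Magel2 from day 0 to day 2 was called in both genotypes, at a log2 fold change of -2.07 (95% interval -3.46 to -0.69, adjusted p = 0.0179) in wt and -1.93 (95% interval -3.60 to -0.25, adjusted p = 0.0483) in het, the latter not called with library totals (adjusted p = 0.0525). Without any 1 of the 3 lines it was not called, with values of -2.53 to -1.52 in wt and -2.22 to -1.56 in het. Changes at the later steps were not called, and their intervals were wide, -2.62 to 1.43 in wt and -0.59 to 3.05 in het from day 2 to day 2.5. Between genotypes the intervals of Magel2 were wide as well, at -1.35 to 0.38 at day 0 and -0.15 to 3.12 at day 2.5, so a difference was not detectable at this depth.

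Mkrn3 encodes a makorin, a zinc finger protein with a RING domain, known in humans for restraining the onset of puberty. Its level at day 0 was 8.63, 6.49 and 7.002 CPM in wt lines 1, 2 and 3, against 7.14, 9.41 and 10.8 CPM in the het lines. At day 2 it was 11.5, 13.6 and 6.16 CPM in wt lines 1, 2 and 3, against 16.6, 8.403 and 15.7 CPM in the het lines. Its libraries spread widely at day 2 and the groups overlapped on both days.
At day 2.5 the level was 6.87, 5.38 and 5.005 CPM in wt lines 1, 2 and 3, against 5.99, 7.83 and 9.39 CPM in the het lines. At day 3 it was 6.38, 8.003 and 7.56 CPM in wt lines 1, 2 and 3, against 10.4, 9.33 and 14.6 CPM in the het lines. At day 3 all het lines were above all wt lines.

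Mkrn3 fell from day 2 to day 2.5 in het, by 0.83 (adjusted p = 0.0175, SE 0.26), and was -0.85 (adjusted p = 0.0565, SE 0.31) in wt, where the line block, no filter, DESeq2 and 1 fit of all libraries each brought it past the threshold (adjusted p of 0.0212 to 0.0455). It was lower in 6 of 6 lines. The step before gave 0.50 (adjusted p = 0.196, SE 0.30) in wt and 0.58 (adjusted p = 0.0575, SE 0.25) in het, the latter called with the line block (adjusted p = 0.0461), with library totals (0.0429) and with no filter (0.0197), and the step after gave 0.35 (adjusted p = 0.356, SE 0.25) and 0.54 (adjusted p = 0.078, SE 0.22), the latter called with the line block (adjusted p = 0.0371) and with no filter (0.0217). Het against wt gave 0.29 (adjusted p = 0.656, SE 0.23), 0.37 (adjusted p = 0.736, SE 0.30), 0.42 (adjusted p = 0.908, SE 0.25) and 0.64 (adjusted p = 0.425, SE 0.22) at the 4 days in order, and 0.38 (95% interval 0.02 to 0.75, adjusted p = 0.527) on the summed counts.

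Peg12, also named Frat3, belongs to the Frat family of proteins that bind the kinase GSK3, the kinase that CHIR99021 inhibits. Its level at day 0 was 3.69, 3.18 and 3.61 CPM in wt lines 1, 2 and 3, against 4.46, 4.83 and 4.68 CPM in the het lines. Day 2 values were 1.63, 6.18 and 2.34 CPM in wt lines 1, 2 and 3, against 4.08, 2.801 and 5.42 CPM in the het lines. The groups did not overlap at day 0 and overlapped at day 2, where wt line 2 was the highest library.
At day 2.5 the level was 4.399, 4.004 and 6.18 CPM in wt lines 1, 2 and 3, against 8.11, 6.89 and 10.05 CPM in the het lines. By day 3 it was 5.14, 4.87 and 4.39 CPM in wt lines 1, 2 and 3, against 11.1, 6.79 and 9.21 CPM in the het lines. On both days every het line was above every wt line.

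The difference between genotypes in Peg12 was 0.40 (adjusted p = 0.607, SE 0.28) at day 0, 0.27 (adjusted p = 0.911, SE 0.48) at day 2, 0.76 (adjusted p = 0.907, SE 0.26) at day 2.5 and 0.90 (adjusted p = 0.301, SE 0.23) at day 3, as log2 fold changes of het against wt. On summed counts it was 0.69 (95% interval 0.33 to 1.05, adjusted p = 0.34), a 1.61-fold higher level that was not called by edgeR with its filter on low counts. It was called by edgeR with no filter (0.69, adjusted p = 0.0437) and by DESeq2 (0.69, adjusted p = 0.0213). The day 3 difference was called by edgeR with no filter (0.91, adjusted p = 0.0417) and not by DESeq2. As means over the 4 days, the wt lines were at 3.72, 4.56 and 4.13 CPM and the het lines at 6.94, 5.33 and 7.34 CPM. From day 2 to day 2.5 Peg12 rose by 1.01 (adjusted p = 0.0099, SE 0.28) in het, higher in 3 of 3 lines, and its value in wt was 0.53 (95% interval -0.46 to 1.53, adjusted p = 0.421), where line 2 was lower at day 2.5. The genotype by day interaction was not called for Peg12 (adjusted p = 0.983), so the genotypes were not shown to differ in this. The related Frat1 and Frat2, which lie elsewhere, had summed differences of -0.72 and -0.22 in het against wt, neither called.

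Set side by side, the differences leaned to higher levels in het, and whether any was called depended on the test. By edgeR with its filter on low counts none of the 7 genes was called. At day 0, 0 of 7 were called, against 0% of 15108 genes tested, and at day 2 0 of 7 against 0.551% of 15414. At day 2.5 it was 0 of 7 against 0% of 15588, at day 3 0 of 7 against 0.00638% of 15686, and on summed counts 0 of 7 against 0.00544% of 18371. With no filter edgeR called 2 members at day 0 (Snhg14 and Ube3a) against 1.66% of 22267 genes, 1 at day 2 (Snhg14) against 1.77%, 1 at day 2.5 (Snhg14) against 0.381%, 1 at day 3 (Peg12) against 1.21% and 1 on summed counts (Peg12) against 0.743%. DESeq2 called 1 at day 0 (Ube3a) against 0.834% of genes given an adjusted p, 0 at day 2 against 1.71%, 1 at day 2.5 (Snhg14) against 0.0192%, 0 at day 3 against 0.856% and 1 on summed counts (Peg12) against 0.934%. It gave an adjusted p to 4 members at day 0, to 6 at days 2 and 3 and to 7 otherwise. The log2 fold change was above 0 for 6, 6, 6, 7 and 7 members. Its median over the members was 0.29, 0.27, 0.42, 0.46 and 0.33, whereas the median of all genes tested was between -0.0053 and 0.0018. The members were chosen knowing earlier results of these data, so these counts describe them and test nothing.

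**Figure D3:**
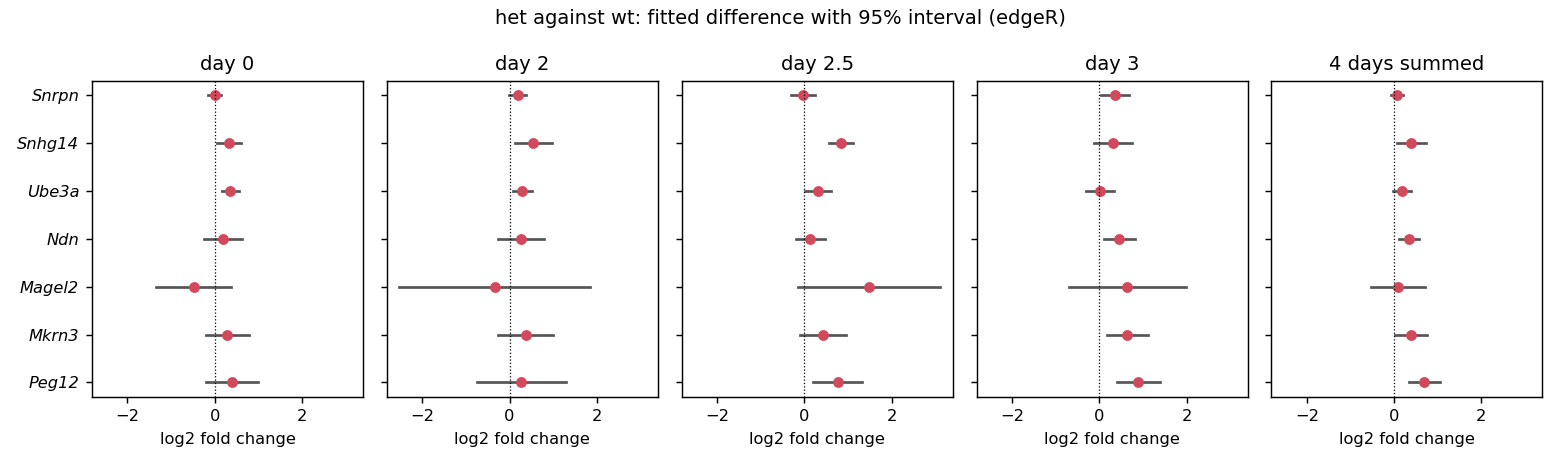
Log2 fold change of het against wt (horizontal axis) for each gene on each day and on the counts of all days of a line added up, with 95% intervals from the edgeR fit, a point per gene and a dotted line at 0. Most points lie to the right of 0, up to 1.48 for Magel2 at day 2.5, and none was called by edgeR with its filter on low counts.

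At an unadjusted p under 0.05, and higher in het, stood 2 members at day 0 (Ube3a and Snhg14) against 4.81% of all genes, 2 at day 2 (the same pair) against 4.13%, 3 at day 2.5 (Snhg14, Ube3a and Peg12) against 3.37%, 4 at day 3 (Snrpn, Ndn, Mkrn3 and Peg12) against 4.99%, and 4 on summed counts (Snhg14, Ndn, Mkrn3 and Peg12) against 3.98%. No member was lower at that level, where 6.10%, 6.10%, 1.90%, 4.14% and 5.07% of all genes were, in the same order. Counted by overlap, all 3 het lines were above all 3 wt lines for 3 members at day 0 (Snhg14, Ube3a and Peg12) where 8.97% of the 17543 genes kept over all libraries were so, for 2 at day 2 (Snrpn and Ube3a) where 7.47% were, for 3 at day 2.5 (Snhg14, Magel2 and Peg12) where 6.41% were, and for 4 at day 3 (Snrpn, Ndn, Mkrn3 and Peg12) where 8.23% were. Over the mean of the 4 days of each line it was 5 members (Snhg14, Ube3a, Ndn, Mkrn3 and Peg12) against 9.88%. No member had all het lines below all wt lines, where 6.64%, 7.77%, 4.91%, 5.36% and 7.39% of genes did, in the same order. An exact permutation test of 3 lines against 3, two-sided, gives p = 0.1 at the smallest. It gives that value for any gene whose lines do not overlap, so for these 5 members it only restates the lack of overlap.

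The line means of the 5 give the sizes. Snhg14 averaged 78.5 ± 14.7 CPM in wt and 109.8 ± 14.98 CPM in het (mean ± SD, n = 3 lines), a ratio of 1.40. Ube3a averaged 173 ± 19.2 and 206 ± 14.2 CPM (ratio 1.19), Ndn 14.1 ± 1.24 and 16.9 ± 1.05 CPM (1.199), Mkrn3 7.72 ± 1.11 and 10.5 ± 1.97 CPM (1.36), and Peg12 4.13 ± 0.42 and 6.53 ± 1.06 CPM (1.58). For Snrpn the ratio was 1.07 and for Magel2 1.06, with lines that overlapped.

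Markers of extraembryonic endoderm, a cell type that can arise in such cultures, moved with genotype in the other direction. All 11 of the 12 listed genes that were tested, among them Gata6, Sox17 and Lama1, had a lower value in het on each of the 4 days, and 9 of them were called at day 2. Their summed level was 2134 to 3614 CPM in wt and 1272 to 1819 CPM in het at day 0, and 7039 to 14477 against 4324 to 5965 CPM at day 2. At day 2.5 it was 5033 to 12938 against 5274 to 7696 CPM and at day 3 4904 to 9788 against 3820 to 6259 CPM, with overlap on both days. At most 1 of the 12 genes was at 0 in all 3 libraries of a group. Their part in the differences of the cluster genes was not tested. At day 3 some other marker lists had higher values in het. All 4 epiblast markers had a higher value in het (median log2 fold change 0.98, 3 at an unadjusted p under 0.05 and 0 called by edgeR). Their summed level was 144 to 188.1 CPM in wt and 188.4 to 266 CPM in het, close but without overlap. The core pluripotency pair Pou5f1 and Sox2 had a median of 0.30 (1 at an unadjusted p under 0.05, 0 called), with 228 to 309 CPM in wt and 306 to 402 CPM in het, which overlapped. Medians of neural progenitor and fibroblast markers were 0.10 and 0.24. Those of naive pluripotency, caudal epiblast and paraxial mesoderm markers were below 0, at -0.02, -0.03 and -0.18. Neuron markers at day 3 had a median of 0.34 (4 of 7 tested at an unadjusted p under 0.05, 0 called), with 85.8 to 112 CPM in wt and 111 to 128 CPM in het, which overlapped. Their medians at days 0, 2 and 2.5 were 0.17, 0.24 and 0.08. On the earlier days the medians of the epiblast and core pluripotency markers were between -0.13 and 0.09. The part of these markers in the day 3 values of the cluster genes was not tested.

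Genes around the cluster gave medians nearer to 0. Of 20 genes of the region and its flanks, such as Herc2, Cyfip1 and Tjp1, 17, 18, 18 and 18 were tested on the 4 days and 19 on summed counts, and 0 were called in het against wt by edgeR with its filter each time (1, 2, 0, 1 and 1 at an unadjusted p under 0.05). Their median log2 fold change was 0.10, -0.0020, -0.0065, 0.04 and 0.05. Atp10a, which lies beside Ube3a, had the value nearest to a call at day 3, 0.89 (95% interval 0.35 to 1.43, adjusted p = 0.316), and 0.29 (95% interval 0.09 to 0.49, adjusted p = 0.428) on summed counts, and it was called at day 3 by DESeq2 and with no filter. It was chosen here after the values were seen. Of 19 further rows between the ends of the cluster, 15 averaged under 10 counts, and the other 4 are Snurf, Gm38393, Gm44560 and 9330162G02Rik, not called on any day. Of 30 imprinted genes elsewhere, 25 to 27 were tested, with a median log2 fold change between -0.05 and 0.09. In het against wt 0 were called by edgeR with its filter. At an unadjusted p under 0.05 stood 3 to 4, where 822 of 15588 (day 2.5) to 1649 of 15108 (day 0) of all genes did. DESeq2 called 0 to 1 (Cdkn1c at day 0, otherwise Grb10), where 0.0192% to 1.71% of all genes were called. With no filter 1 to 2 were called (among Zdbf2, Cdkn1c, Grb10, Kcnq1ot1 and Mest), where 0.381% to 1.77% of all genes were. Sequence relatives of the members were not called on summed counts either, with -0.08 for Snrpb, -0.00 and -0.01 for Mkrn1 and Mkrn2, and 0.11, -0.11, 0.01 and 0.05 for the MAGE genes Nsmce3, Maged1, Maged2 and Mageh1.

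At each step of differentiation some members were called, and in differing directions. From day 0 to day 2, 2 of 7 were called in wt, both lower (Snrpn and Magel2), where 44.3% of genes tested were called, and 3 of 7 in het (Snrpn and Magel2 lower, Ndn higher), where 56.1% were. With the line as a block 5 were called in het, where 56.6% of genes were, Snhg14 (0.25, adjusted p = 0.00544) and Mkrn3 being added as higher. Leaving out lines, 1 member (Snrpn) was called in wt without any 1 line, where 26.3% to 40.4% of genes were. In het the count was 1 without line 1 and 2 without line 2 or line 3, where 44.5% to 49.9% of genes were, Ndn being lost without line 1 (adjusted p = 0.236) or line 2 (0.0740).

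From day 2 to day 2.5, the 12 h after Wnt activation, 3 of 7 were called in wt (Ube3a and Snhg14 lower, Ndn higher), where 29.1% of genes tested were called. In het it was 6 of 7 (Ube3a, Snhg14, Snrpn and Mkrn3 lower, Ndn and Peg12 higher), where 44.7% were. The 3 members called in wt were among the 6 called in het, with the same direction. Without wt line 2, Ube3a (adjusted p = 0.0524) and Ndn (0.0971) were no longer called by edgeR in wt, where 14.2% of genes were. Without wt line 3 Ndn was not called (0.0794), where 16.1% of genes were. Without het line 1, Snrpn (0.0865), Mkrn3 (0.288) and Peg12 (0.0676) were no longer called in het, where 30.9% of genes were.

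From day 2.5 to day 3, 4 of 7 were called in wt (Ube3a and Snhg14 higher, Snrpn and Ndn lower), where 19.1% of genes tested were called. In het it was 2 of 7 (Ube3a higher, Snrpn lower), where 29.8% were, and 4 with the line as a block, which added Ndn and Mkrn3, where 30.9% were. Without wt line 2, which holds the smallest library, 0 members and 29 genes in all were called in wt by edgeR, against 2923 with all lines. The values then kept their sign, at 0.37 for Ube3a, 0.39 for Snhg14, -0.90 for Snrpn and -0.76 for Ndn. Without wt line 3, Snrpn alone was called, where 6.35% of genes were. Without wt line 1, Ndn was not called (adjusted p = 0.113), where 20.1% of genes were. Without het line 1 or line 2, Ube3a was not called (adjusted p = 0.0875 and 0.0899), nor was it in 1 fit of all libraries (0.0640).

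**Figure D4:**
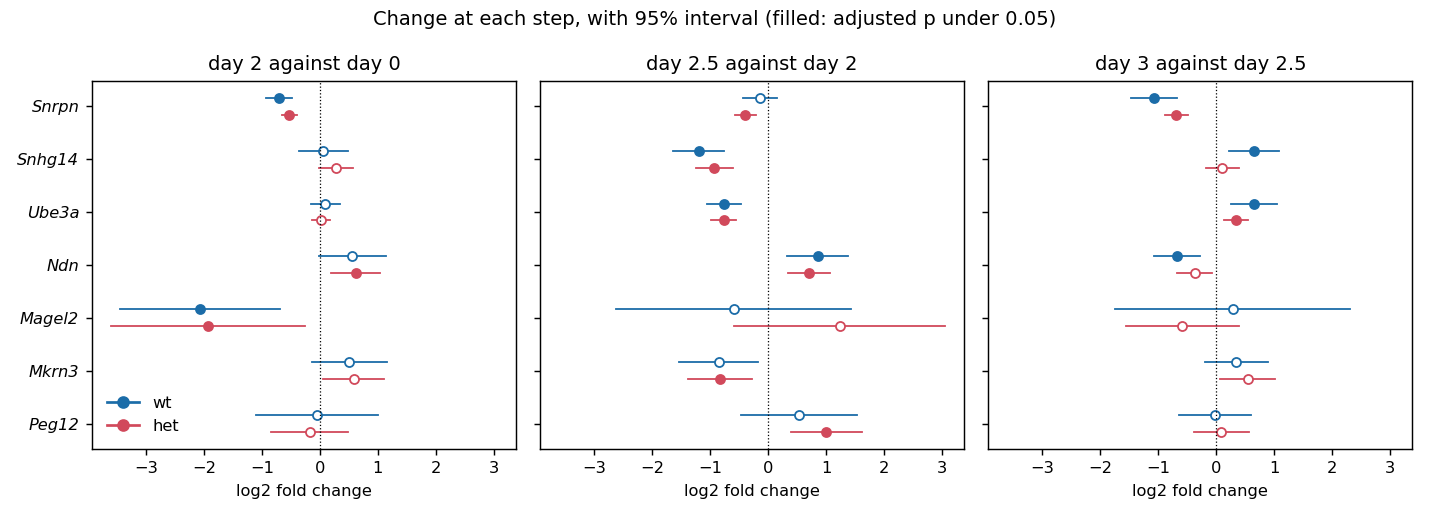
Log2 fold change at each step of differentiation (horizontal axis) for each gene, with 95% intervals from the edgeR fit, wt and het in separate colours and filled points where the adjusted p was under 0.05. Ube3a and Snhg14 lie left of 0 from day 2 to day 2.5 while Ndn lies right of it, and Snrpn is at or left of 0 at every step.

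Whether the time course of a member differed between genotypes was asked with the interaction of genotype and day over all 24 libraries. No member was called by edgeR (0 of 7, against 0% of 17543 genes) or by DESeq2. None had an unadjusted p under 0.05, where 5.08% of genes did, and these ranged from 0.151 for Snrpn to 0.832 for Mkrn3. Steps called in one genotype and not in the other were thus not shown to differ.

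The genes of most similar pattern to each member, by Pearson's r of log2 CPM over the 24 libraries among the 12457 genes that averaged 50 counts or more, lay on other chromosomes with 1 exception. For Snrpn they were Rfc5, Pou5f1 and Zfp532 (r of 0.97 each). Pou5f1 is the pluripotency factor OCT4, and the core pluripotency pair Pou5f1 and Sox2 summed to 1369 to 1698 CPM at day 0 and 228 to 402 CPM at day 3. For Ube3a they were Arhgap5, Slc24a5 and Mastl (0.95, 0.94 and 0.94), and for Snhg14 Slc24a5, Cpsf6 and 4930447C04Rik (0.92, 0.88 and 0.88). For Ndn they were Ppp4r4, Endov and Rtl8b (0.92, 0.91 and 0.89). For Mkrn3 they were Gm17275, Far1 and Fmr1 (0.84, 0.80 and 0.77), of which Far1 is on chromosome 7. For Peg12 they were Gli3, Zfp760 and AC124108.1 (0.85, 0.84 and 0.82), and for Magel2 Dhx35, Zfhx2 and 1500004A13Rik (0.86, 0.85 and 0.84). Magel2, at an average of 19.8 counts, could not be named by this rule as a gene most like another. None of the other 6 members was among the 3 nearest of a member, and the libraries share lines and days, so r is a description.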

How the data were processed

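The data were 24 poly(A) RNA-seq libraries, 6 lines on 4 days. The authors trimmed 75-base single-end reads with TrimGalore, aligned them with hisat2 to GRCm38.p6 and quantified genes in SeqMonk, and deposited raw read counts per gene. Whether reads were counted by strand is not stated. The authors' deposited tables of log2 RPKM hold none of the 7 genes and were not used, nor were 8 columns of group means. Each column matched 1 label by title, with 0 left over. Of 35545 gene identifiers found in GENCODE vM21, 99.6% had the same position.

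Tests were run with edgeR 4.0.16 under R 4.3.3 (TMM factors, filterByExpr by group, quasi-likelihood test, Benjamini-Hochberg over all genes tested). "Called", "rose" and "fell" mean an adjusted p under 0.05. All adjusted p values are from edgeR unless DESeq2 (1.42.0) is named. Intervals come from the fitted SE. Figures were drawn in Python 3.11.15. On simulated counts for het against wt at day 2 (15422 genes), the test recovered 195 of 200 genes changed 2-fold, with 17 other calls. With 0 genes changed it made 0 calls. That recovery holds only for the spread and the count levels that were simulated. It does not give the share recovered at the spread of the real lines, or for a gene as weak as Magel2. Changes smaller than 2-fold were not simulated. The members' own day 2 differences were smaller, from 0.787-fold (Magel2) to 1.46-fold (Snhg14). The simulation thus does not tell how often differences of that size would be called. The lack of calls among the members does not show that they were unchanged.

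Genes named are the 7 members, Smchd1, flanking genes and relatives by list, rows between the cluster's ends with a mean of at least 10 counts, and the 3 genes most like each member. Imprinted genes elsewhere are named where called. The members and lists were chosen with earlier results of these data known. The study describes the lines as independent derivations, and a wt and a het line of the same number are different lines. Steps compare the same lines, so the line was also fitted as a block. Depth was 7.10 to 20.8 M (mega) counts, and 3 counts were taken as the limit that a count of 0 allows, for counting error only. Alternatives were DESeq2 size factors, library totals, no filter, DESeq2, 1 fit of all libraries, the line block and leaving out each line.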

Additional observations from a re-analysis of the deposited data

How the results depend on the processing

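Among counts of members called in het against wt, no filter on low counts gave 2 at day 0 (Snhg14 and Ube3a) and 1 at days 2 and 2.5 (Snhg14), at day 3 and on summed counts (Peg12), where 0.381% to 1.77% of genes were called, and DESeq2 gave 1 at day 0, at day 2.5 and on summed counts, where 0.0192% to 0.934% were, each against 0. Both changed how the spread was estimated, and the cause was not tested. Leaving out 1 line gave 0 to 1 at day 2 and 0 on the other days and on summed counts. At the steps it gave 1 in wt from day 0 to day 2 (each line), 1 to 3 from day 2 to day 2.5 and 0 to 3 from day 2.5 to day 3, and in het 1 to 2, 3 to 6 and 1 to 2. Fewer samples enter those fits. In het from day 0 to day 2, no filter and the replicate block each gave 5, where 40.2% and 56.6% of genes were called. From day 2.5 to day 3 the replicate block gave 4, where 30.9% were, and 1 fit of all libraries gave 1, where 19.3% were. The block with line numbers shared by wt and het lines, which are different lines (correlations of same-numbered deviations from -0.11 to 0.15), called 0 members in het against wt. In the interaction, the block and each other setting called 0 members.

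Signs changed for Peg12 in wt from day 0 to day 2 with library totals (0.013). Over the fits that left out 1 line, log2 fold changes near 0 crossed it in het against wt at day 0, Snrpn (-0.0446 to 0.0462). The same was seen in het against wt at day 2, Magel2 (-0.86 to 0.22), Peg12 (-0.0644 to 1.03). It was seen in het against wt at day 2.5, Snrpn (-0.14 to 0.0985), and in het against wt at day 3, Ube3a (-0.14 to 0.22). Further cases were in het against wt on summed counts, Magel2 (-0.14 to 0.22), and in wt from day 0 to day 2, Peg12 (-0.87 to 0.33), Snhg14 (-0.22 to 0.23), Ube3a (-0.00755 to 0.19), and in wt from day 2 to day 2.5, Magel2 (-2.42 to 0.0132). Further cases were in wt from day 2.5 to day 3, Magel2 (-0.35 to 0.28), Peg12 (-0.16 to 0.26), and in het from day 0 to day 2, Peg12 (-0.42 to 0.0539), Ube3a (-0.0224 to 0.0812), and in het from day 2.5 to day 3, Peg12 (-0.10 to 0.24), Snhg14 (-0.10 to 0.26).

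Of the 35 values of the members in het against wt, 26 moved by over 1.5 times, or changed sign, without 1 of the lines, among them Snrpn at day 3 (0.17 without wt line 2, against 0.36).

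Counts over all genes moved as well. In het against wt they went from 0 to 369 at day 0 and from 85 to between 0 and 384 at day 2. They went from 0 to 87 at day 2.5 and from 1 to 274 at day 3. On summed counts they went from 1 to 404, and in the interaction from 0 to 156. These counts are out of far more genes than the 7 members, so the sizes of the moves cannot be compared. As shares, no filter took members from 0% to 28.6% at day 0, and all genes from 0% to 1.66%. At day 2.5 it took members from 0% to 14.3%, and all genes from 0% to 0.381%. In the interaction it went the other way, with 0% of members and 0.610% of all genes called. The line block gave 4687 genes in wt from day 2.5 to day 3, against 2923.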
